A study of Mus musculus with 2 samples.

Results

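Insulin lowers blood glucose partly by switching genes on and off, and 9 genes of that system are described here: G6pc, Pck1, Fbp1, Pdk4, Irs2, Igfbp1, Tat, Slc2a2 and Slc2a4. They were taken by gene symbol, matched through the transcript accession of each array probe, and all 9 had a probe among the 20884 genes with a usable probe on the liver array. Each rested on 1 probe, printed once on the array except that of Slc2a4, which was printed on 10 spots. On both arrays all 9 were well above background in both channels, by the scanner software's own mark, so none was lost to the filter on dim probes.

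The RNA came from liver and adipose tissue of male C57BL/6J wild-type mice that had eaten a high-fat diet (HFD) or a normal diet (ND) for 4 weeks. The labels state that the RNA of 10 livers and of 10 adipose tissues was combined by diet, and each tissue was hybridised to 1 Agilent array with 2 channels, the HFD pool in red (Cy5) and the ND pool in green (Cy3). The fat depot, the composition of the diets, and the feeding state and time of day at sampling are not given in the sources used here. Without replicate arrays or swapped dyes, no value has a spread between animals or a p-value, and diet and dye cannot be told apart for any probe. By hepatocyte and adipocyte markers the arrays matched their labels. On the normal diet the liver array was the brighter for 28 of 30 hepatocyte markers, and 14 of 14 adipocyte markers measured on both arrays were brighter on the adipose array. Markers of other organs were also bright in the fat pools. In the HFD fat pool the summed log2 level was 19.91 for intestinal and 20.29 for adipocyte markers. In the ND fat pool it was 18.89 for hepatocyte and 20.34 for adipocyte markers. The error given below with a ratio is the scanner software's, which covers the measurement of the spot only.

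In a fasted animal the liver makes glucose from lactate, glycerol and amino acids and releases it into the blood. Insulin restrains this after a meal, in part by driving the transcription factor FoxO1 out of the nucleus, which lowers transcription of G6pc, Pck1, Igfbp1 and Irs2, while glucagon, acting through cyclic AMP, and glucocorticoids raise several of these genes. In adipose tissue and muscle insulin acts on glucose uptake by moving the transporter GLUT4, the product of Slc2a4, to the cell surface.

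Promoter sequence is shown for 4 of the genes, because 3 of them hold the same short motif and had unlike diet ratios and the fourth, Pck1, holds a different one. RefSeq (GRCm38.p6) gave a promoter window for 8 of the 9 genes, and the 250 bases before each start were searched on both strands. Capitals mark the core of the insulin response sequence, TGTTTTG or its reverse complement CAAAACA, in Igfbp1 (chr11:7197537-7197786 (+ strand)), G6pc (chr11:101367466-101367715 (+ strand)) and Irs2 (chr8:11008930-11009179 (- strand)). In Pck1 (chr2:173152823-173153072 (+ strand)) they mark CGTCA, the reverse complement of TGACG, the core of the cyclic AMP response element.
Igfbp1: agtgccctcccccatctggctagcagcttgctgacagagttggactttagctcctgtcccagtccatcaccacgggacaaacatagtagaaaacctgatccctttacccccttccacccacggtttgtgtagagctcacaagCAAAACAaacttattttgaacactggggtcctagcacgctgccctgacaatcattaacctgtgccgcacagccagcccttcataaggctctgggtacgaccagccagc
G6pc: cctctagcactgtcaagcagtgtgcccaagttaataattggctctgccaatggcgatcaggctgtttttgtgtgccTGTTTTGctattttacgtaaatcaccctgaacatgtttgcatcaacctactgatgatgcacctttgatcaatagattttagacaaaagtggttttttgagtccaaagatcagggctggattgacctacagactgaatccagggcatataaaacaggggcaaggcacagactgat
Irs2: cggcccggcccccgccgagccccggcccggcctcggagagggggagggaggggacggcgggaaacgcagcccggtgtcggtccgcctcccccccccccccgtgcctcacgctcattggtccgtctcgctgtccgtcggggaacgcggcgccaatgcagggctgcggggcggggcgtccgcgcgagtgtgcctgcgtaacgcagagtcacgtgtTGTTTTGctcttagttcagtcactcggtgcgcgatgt
Pck1: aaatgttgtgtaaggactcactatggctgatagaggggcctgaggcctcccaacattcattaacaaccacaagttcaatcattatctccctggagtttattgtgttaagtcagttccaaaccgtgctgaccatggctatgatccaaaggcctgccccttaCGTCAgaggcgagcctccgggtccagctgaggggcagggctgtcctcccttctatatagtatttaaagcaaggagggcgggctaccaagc

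The insulin response core lay in 3 of 8 windows, against 5.56% of 32851 promoter windows of the mouse genome. Its first base stood 108 bases before the start in Igfbp1, 174 in G6pc and 37 in Irs2. The forkhead core TGTTTAC was in none of the 8 windows and in 3.17% of all windows. TGACG was in 1 of the 8 windows, that of Pck1 at 90 bases, and in 17.8% of all. The hexamer TGTTCT, bound by the glucocorticoid receptor, was in 0 of 8 and in 16.1% of all. None of these motifs overlapped another in these windows. A match is a description of the letters only. Of the 3 genes with the insulin response core, Igfbp1 was lower in both HFD pools and G6pc was lower by a smaller amount in both. Irs2 lay near 0 in liver and at -0.30 in fat, which is within 2 times its scanner error.

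Levels below are log2 intensities of a channel after normalization, and ratios are log2 of the HFD pool over the ND pool, so that -1 is 2-fold lower in the HFD pool. A difference of 2-fold or more was the size rule for a call. In liver 0 of 9 genes were called higher and 2 lower, Pdk4 and Slc2a4, and Igfbp1 lay just short of the threshold. Of all 13642 measured genes, 0.491% were called higher and 0.579% lower. In adipose tissue 0 were called higher and 3 lower, Igfbp1, Tat and Pdk4, against 4.23% and 5.13% of 14315 genes.

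The ratio of 7 of the 9 genes was below 0 in liver, with a median of -0.48 against 0.01 over all genes, and of 7 of 9 in adipose tissue, with a median of -0.37 against -0.01. With median centring in place of loess the median of all genes itself moved to 0.32 in liver and 0.69 in adipose tissue, and relative to it 5 of 9 genes were lower in liver and 4 of 9 in adipose tissue. The genes that changed side were Pck1 and Irs2 on both arrays and Fbp1 in adipose tissue. Ratios larger than 2 times the scanner error were found for 7 of 9 genes in liver, where 7.84% of all genes had one, and for 5 of 9 in adipose tissue, where 27.4% did.

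**Figure D1:**
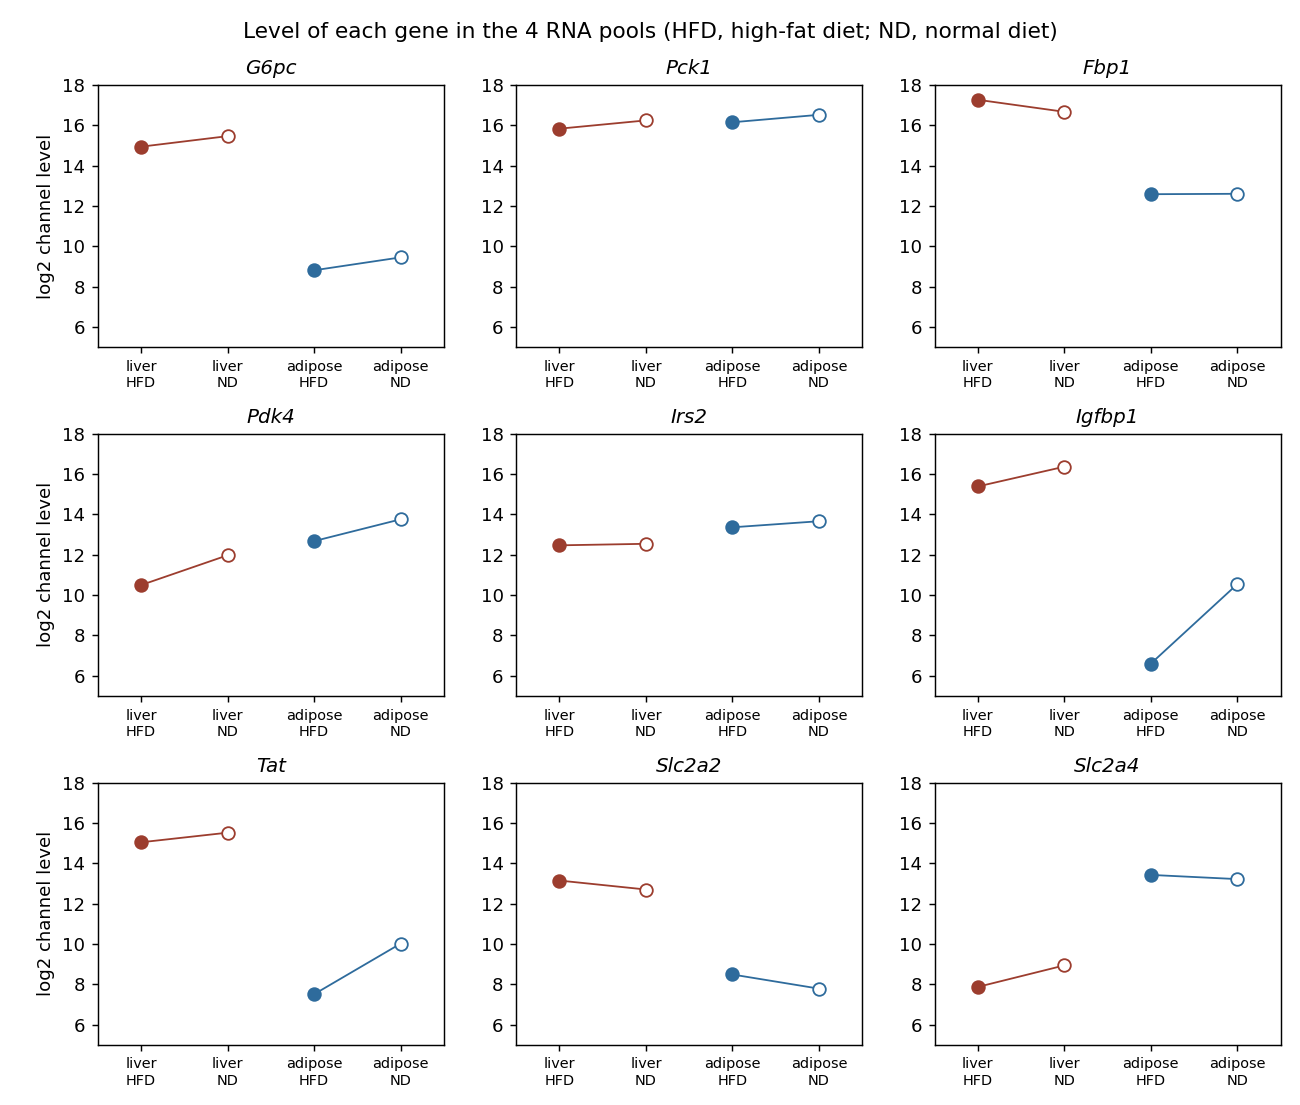
Log2 channel level of each of the 9 genes, 1 panel per gene, in the liver HFD and ND pools (red, filled and open) and the adipose HFD and ND pools (blue, filled and open), 1 array per tissue and no error bars because there are no replicates. G6pc, Fbp1, Igfbp1, Tat and Slc2a2 were brighter on the liver array, Slc2a4 and Pdk4 on the adipose array, and the steepest line is that of Igfbp1 in adipose tissue, at 6.60 in the HFD pool and 10.54 in the ND pool.

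Among the enzymes of glucose production, G6pc and Pck1 were lower and Fbp1 higher in the HFD liver pool, all by less than 2-fold. G6pc encodes the catalytic subunit of glucose-6-phosphatase, which frees glucose from its phosphate. Its level was 14.94 in the HFD liver pool and 15.46 in the ND liver pool, a ratio of -0.52 ± 0.21 (scanner error), or 1.44-fold lower on HFD. Pck1, the cytosolic PEP carboxykinase that commits carbon to glucose, had 15.83 in the HFD liver and 16.24 in the ND liver, a ratio of -0.41 ± 0.21. Both ratios were among the lowest of the liver array: 306 of 13642 genes lay below G6pc and 497 below Pck1. Median centring put G6pc at -0.12 and Pck1 at 0.06 relative to the median of all genes, so the side of Pck1 depended on the normalization.

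Fbp1, the fructose-1,6-bisphosphatase of the same pathway, stood on the other side in liver. It had 17.26 in the HFD pool and 16.67 in the ND pool, a ratio of 0.60 ± 0.21, or 1.51-fold higher on HFD. Its probe was among the brightest of the array, and the 56 genes within 0.5 of its mean log2 intensity had a median ratio of 0.58. Once the running median over genes of like brightness was taken off, the ratio of Fbp1 was -0.05, and with the scanner software's ratio 0.26. G6pc and Pck1 lay in brightness ranges with medians of 0.05 (219 genes) and 0.17 (140 genes), and their ratios were below the 5th percentile of those genes, -0.38 and -0.29.

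In adipose tissue the same enzymes stayed within 2-fold. Pck1, which in fat cells makes glycerol phosphate for triglyceride, was at 16.15 in the HFD fat pool and 16.52 in the ND fat pool, a ratio of -0.37 ± 0.21. The level of Fbp1 was 12.58 in the HFD pool and 12.60 in the ND pool, a ratio of -0.02 ± 0.20 that is smaller than its error. G6pc was much dimmer in fat, at 8.81 in the HFD pool and 9.45 in the ND pool, with a ratio of -0.64 ± 0.21. On that array 1321 of 14315 genes had a lower ratio than G6pc.

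Pdk4 was lower in the HFD pool of both tissues by at least 2-fold. It encodes pyruvate dehydrogenase kinase 4, which shuts pyruvate out of oxidation when fat is the fuel and which insulin represses. The level was 10.50 in the HFD liver pool and 11.98 in the ND liver pool, a ratio of -1.48 ± 0.25 (2.79-fold lower on HFD). It was 12.68 in the HFD fat pool and 13.76 in the ND fat pool, a ratio of -1.08 ± 0.23 (2.11-fold lower on HFD). Only 21 of 13642 genes had a lower ratio in liver, whereas 663 of 14315 did in fat. With median centring the fat ratio was 0.01, which is -0.68 relative to the median of all genes in that setting, and the liver ratio stayed past 2-fold at -1.03.

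The other genes that control pyruvate dehydrogenase stayed within 2-fold. Of 13 other genes on that list (kinases, phosphatases, subunits and the mitochondrial pyruvate carrier), 11 were measured in liver and 12 in fat, and 0 passed 2-fold either way on either array. A list this short would hold few calls at the shares over all genes. Those were 0.491% higher and 0.579% lower in liver, and 4.23% and 5.13% in fat. The list's medians were -0.02 in liver and 0.04 in fat. The largest liver ratios were those of Mpc1, a carrier subunit, at 0.38, and of Pdk2 (0.26) and Pdk1 (-0.24), sister kinases. In fat Pdk2 was at -0.95, Pdk3 at 0.55 and Dld, the dihydrolipoamide dehydrogenase subunit, at 0.52.

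Skeletal muscle also expresses Pdk4 and Slc2a4, and muscle markers moved with both genes on the liver array. All 28 measured of 30 muscle markers had a ratio below 0 in liver, 17 of them at least 2-fold lower, with a median of -1.14 and a range of -1.60 to -0.12. The other 2 were not well above background in both channels. Their summed log2 level was 14.96 in the HFD liver pool and 16.31 in the ND liver pool. The part of muscle RNA in the liver ratios of Pdk4 and Slc2a4 was not tested. In pooled tissue RNA, fewer cells of a type and less RNA per cell cannot be told apart. In fat the median of 19 measured muscle markers was -0.53, with 6 at least 2-fold lower. The share of all measured genes called lower was 0.579% in liver and 5.13% in fat.

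Tat encodes tyrosine aminotransferase, a liver enzyme of amino acid breakdown that glucocorticoids and glucagon induce. In liver it had 15.04 in the HFD pool and 15.52 in the ND pool, a ratio of -0.48 ± 0.21, with 377 genes lower. In fat its level was 7.51 in the HFD pool and 10.01 in the ND pool, a ratio of -2.51 ± 0.34, or 5.69-fold lower on HFD. The raw spot showed the same order, with a median pixel intensity of 434 in the HFD channel and 567 in the ND channel, although red was the brighter channel over the array as a whole (medians of 274 in the HFD channel and 97 in the ND channel).

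Many other genes of amino acid breakdown were lower in the HFD fat pool, and their liver ratios stayed within 2-fold. Of 28 such genes, 0 passed 2-fold in liver, where the median was 0.00 and the largest ratios were those of the urea cycle enzyme Ass1 (0.89), of Oat, the ornithine aminotransferase (0.79), and of Sdsl, a serine dehydratase relative (-0.60). The shares over all genes were 0.491% higher and 0.579% lower in liver, and 4.23% and 5.13% in fat. In fat 13 of 25 measured genes of this list were at least 2-fold lower and 0 higher, with a median of -1.33. Among them, Agxt, a peroxisomal aminotransferase, was at -3.11 and Arg1, the urea-forming arginase, at -3.03. Hepatocyte markers had a median of -3.03 on the same array, and 4 of the 28 listed genes are also on that marker list.

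Igfbp1, a secreted liver protein that binds insulin-like growth factors and whose gene insulin represses, had the lowest ratio of the 9 genes in fat. Its level was 15.39 in the HFD liver pool and 16.37 in the ND liver pool, a ratio of -0.98 ± 0.23, or 1.97-fold lower on HFD. It was 6.60 in the HFD fat pool and 10.54 in the ND fat pool, a ratio of -3.94 ± 0.49, or 15.4-fold lower on HFD. In fat only 42 of 14315 genes had a lower ratio. The raw spot read 226 over a local background of 53.5 in the HFD channel, against 840 over 28.5 in the ND channel. The lowest level among probes well above background in the HFD fat channel was 5.66 on the same log2 scale as the 6.60 of Igfbp1 there.

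The liver ratio of Igfbp1 sat at the 2-fold threshold and crossed it with the processing. It was past 2-fold with the scanner software's ratio (-1.15), with an offset of 10 in the background correction (-1.03) and once a running median over brightness was taken off (-1.09). It was -0.21 with median centring, which is -0.52 relative to the median of all genes in that setting. Among the 159 genes within 0.5 of its brightness in liver the median ratio was 0.17 and the 5th percentile -0.27.

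The rest of the insulin-like growth factor system stayed within 2-fold in liver. Of 14 listed genes, 12 were measured there and 0 passed 2-fold, with a median of 0.05. Among all liver genes 0.491% were called higher and 0.579% lower. Among the binding proteins, Igfbp4 was at 0.96, Igfbp6 at -0.51 and Igfbp3 at -0.34. In fat 2 of 13 measured genes were at least 2-fold lower, Igfbp2 (-1.82) and Igfbp6 (-1.28), and Igfals, a partner of the circulating complex, was at 0.94. Among all fat genes 4.23% were called higher and 5.13% lower.

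Igfbp1 and Tat are made mainly by hepatocytes and G6pc by liver, kidney and gut, and hepatocyte markers differed between the fat pools in the same direction. In liver 2 of 30 hepatocyte markers were at least 2-fold higher and 0 lower, with a median of 0.31. The 2 were Cyp2e1 and Apoa2, at 1.14 each and about as bright as Fbp1. The 56 genes of Fbp1's brightness had a median of 0.58 and a 95th percentile of 1.14. All measured genes had 0.491% called higher and 0.579% lower in liver, and 4.23% and 5.13% in fat. In fat, of 30 hepatocyte markers measured, 22 were at least 2-fold lower in the HFD fat pool and 4 higher, with a median of -3.03 and a range of -5.59 to 2.08. Their summed log2 level was 17.95 in the HFD fat pool and 18.89 in the ND fat pool. Igfbp1 lay beyond the marker median of -3.03, and Tat and G6pc short of it. Fbp1 and Slc2a2, which were also brighter on the liver array, did not share the direction of that median. Their fat ratios were -0.02 and 0.70. The part of liver RNA in these ratios was not tested.

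The same genes were also set against the markers by the gap between the tissues. On the normal diet the liver level exceeded the fat level by 6.01 for G6pc, 5.83 for Igfbp1 and 5.50 for Tat, against a median of 4.33 over the hepatocyte markers. The gap was 4.07 for Fbp1 and 4.92 for Slc2a2. On the high-fat diet these gaps were 6.13 for G6pc, 8.79 for Igfbp1 and 7.53 for Tat, against 7.46 for the markers. Fbp1 and Slc2a2 had 4.68 and 4.66 on that diet. Each tissue has an array of its own, so tissue and array cannot be told apart in these gaps.

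Irs2 encodes an adaptor that carries the signal from the insulin receptor to PI3 kinase. It had 12.47 in the HFD liver pool and 12.54 in the ND liver pool, a ratio of -0.08 ± 0.20, smaller than its error. In fat it had 13.36 in the HFD pool and 13.66 in the ND pool, a ratio of -0.30 ± 0.21. Neither ratio reached 2 times its error.

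The insulin signalling genes around Irs2 stayed within 2-fold too. Of 34 listed genes (receptor, adaptors, kinases, phosphatases and FoxO factors), 34 were measured in liver and 33 in fat, and 0 passed 2-fold on either array. Over all genes, 0.491% were called higher and 0.579% lower in liver, and 4.23% and 5.13% in fat. At such shares a list of this length would hold few or no calls in liver. The medians were 0.05 in liver and -0.17 in fat. In liver Socs3, a feedback inhibitor of cytokine signalling, was at 0.60 and Foxo1 at -0.38. In fat Grb10, an inhibitor of the insulin receptor, was at -0.94 and Foxo4 at -0.63.

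**Figure D2:**
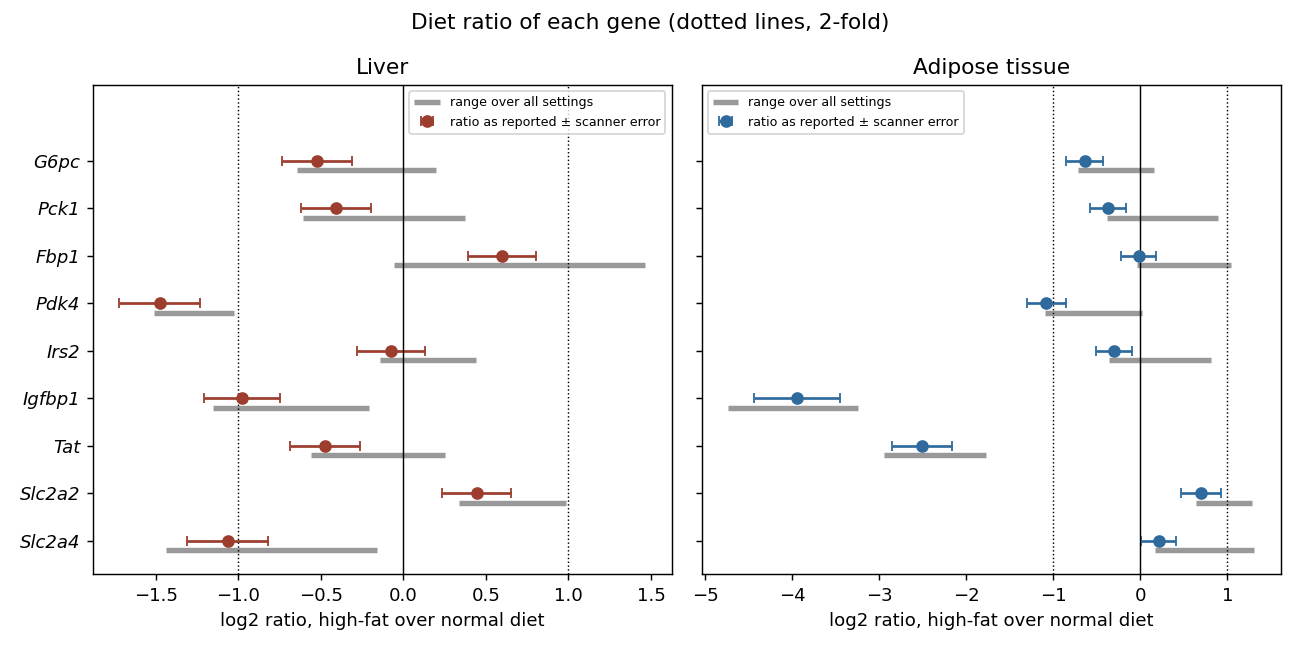
Log2 ratio of the HFD pool over the ND pool for each gene in liver (left) and adipose tissue (right, on a wider scale); points are the ratios as reported with the scanner error as bars, grey lines span the values over all settings tried, and dotted lines mark 2-fold. Of the ratios called lower, Pdk4 in liver and Igfbp1 and Tat in adipose tissue stayed past 2-fold over the whole grey line. The lines of Slc2a4 in liver and Pdk4 in adipose tissue crossed the 2-fold mark. Among ratios not called, so did those of Igfbp1 and Fbp1 in liver and of Fbp1, Slc2a2 and Slc2a4 in adipose tissue.

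The glucose transporter gene Slc2a2 encodes GLUT2, the transporter of liver, gut and pancreatic beta cells that lets glucose pass both ways. It was higher in both HFD pools by less than 2-fold: 13.14 in the HFD liver pool and 12.70 in the ND liver pool, a ratio of 0.44 ± 0.21, and 8.49 in the HFD fat pool and 7.78 in the ND fat pool, a ratio of 0.70 ± 0.23. In liver 4.30% of genes had a higher ratio, and in fat 7.06%. The fat ratio was just past 2-fold with the scanner software's ratio (1.01) and, before allowing for the shifted median of all genes, with median centring (1.28, or 0.58 relative to that median).

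Genes of the small intestine, which also uses GLUT2, were higher in the HFD fat pool too, each by more than Slc2a2 (0.70). All 24 measured of 25 intestinal markers were at least 2-fold higher in the HFD fat pool, with a median of 3.67 and a range of 1.03 to 6.42. Their summed log2 level was 19.91 in the HFD fat pool and 16.09 in the ND fat pool. Islet markers had a median of 0.43 over 9 measured of 17, with Chga at 2.16 and Chgb at 1.73, which gut endocrine cells also express, and with the insulin genes Ins1 at 0.67 and Ins2 at 0.57. In liver 2 of 9 measured intestinal markers were at least 2-fold higher (median 0.06), and 0 of 4 islet markers passed 2-fold (median -0.13). All measured genes had 0.491% called higher and 0.579% lower in liver, and 4.23% and 5.13% in fat. Hepatocyte markers went the other way in fat, with a median of -3.03, 22 of 30 at least 2-fold lower and 4 higher, although liver also uses GLUT2. The part of gut, islet or liver RNA in the Slc2a2 ratio was not tested.

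Slc2a4 encodes GLUT4, the transporter that insulin brings to the surface of fat and muscle cells. In fat its level was 13.42 in the HFD pool and 13.21 in the ND pool, a ratio of 0.21 ± 0.20. The 10 spots of its probe read 0.19 at the lowest, 0.21 at the median and 0.23 at the highest (SD 0.01). The repeated spots agreed closely, but they share 1 pair of RNA pools. The 17 adipocyte markers, all measured in fat, had a median of 0.30, with 1 at least 2-fold higher (Lep, 1.66) and 1 lower (Cfd, -1.70), and a summed log2 level of 20.29 in the HFD pool and 20.34 in the ND pool. These counts stand beside shares over all fat genes of 4.23% higher and 5.13% lower.

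In liver Slc2a4 was dim, at 7.87 in the HFD pool and 8.94 in the ND pool, a ratio of -1.07 ± 0.25. The lowest levels among probes well above background there were 6.37 in the HFD channel and 6.19 in the ND channel. Its 10 spots read -1.18 at the lowest, -1.07 at the median and -0.94 at the highest (SD 0.07), and 67 of 13642 genes had a lower ratio. The call was lost when all local backgrounds were kept as deposited, where the ratio was -0.16. It held with no background subtraction (-1.13), with an offset of 10 (-1.25) and with the scanner software's ratio (-1.44). With median centring it was -0.80, or -1.11 relative to the median of all genes. Adipocyte markers in liver had a median of 0.01 over 14 measured of 17, with a range of -0.93 (Plin4) to 1.28 (Car3), 1 gene at least 2-fold higher and 0 lower. The liver shares over all genes were 0.491% higher and 0.579% lower. The defining marker Adipoq was at 7.0 in the HFD pool and 7.03 in the ND pool. The part of these cells in the Slc2a4 ratio was not tested. The muscle markers, as given above, had a median of -1.14.

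**Figure D3:**
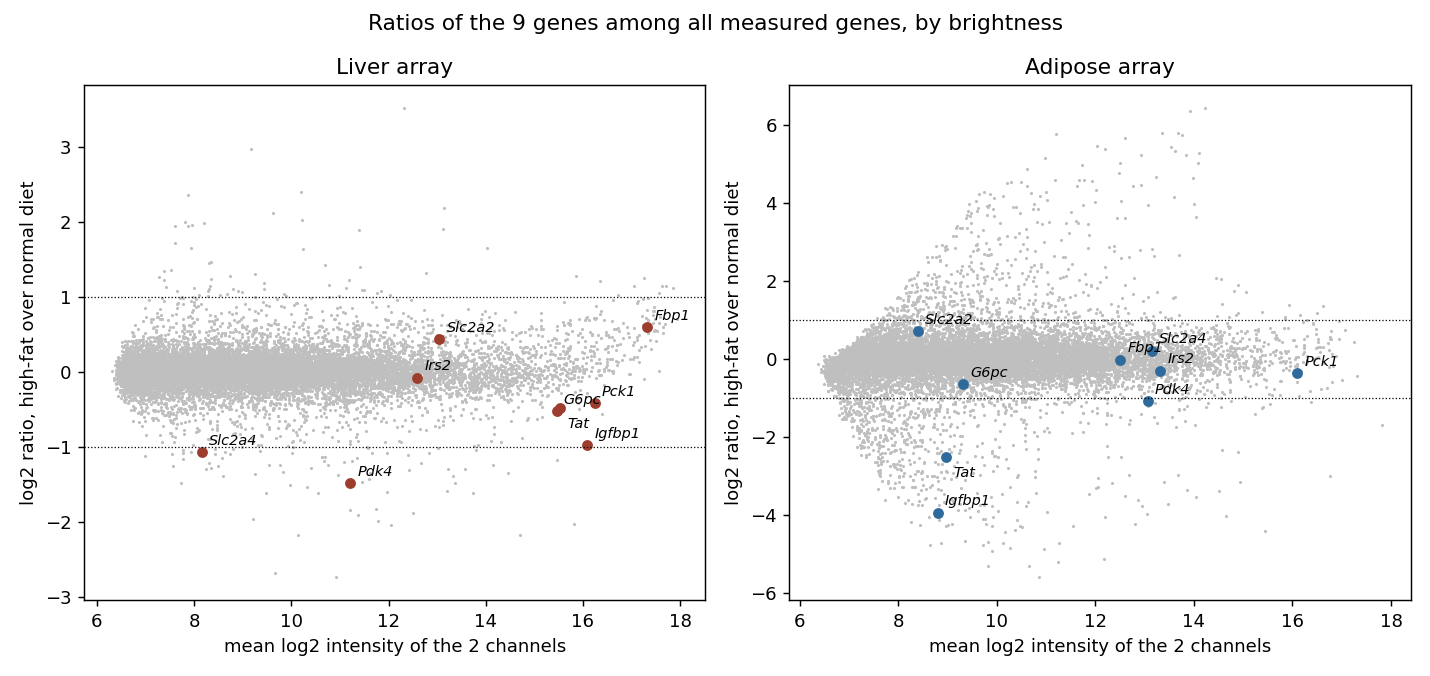
Log2 ratio of the HFD pool over the ND pool (y axis) against the mean log2 intensity of the 2 channels (x axis) for every measured gene of the liver array (left, 13642 genes) and the adipose array (right, 14315 genes) in grey, with the 9 genes in colour; dotted lines mark 2-fold, and the y axes differ. In liver Igfbp1, Pck1, G6pc and Tat lie under the cloud of bright genes and Fbp1 lies inside it, whereas in adipose tissue only Igfbp1, Tat and Pdk4 of the 9 are past the lower dotted line.

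The order of levels over the 4 pools differed between the genes. G6pc, Igfbp1 and Tat were highest in the ND liver pool, then in the HFD liver pool, the ND fat pool and the HFD fat pool. Fbp1 was highest in the HFD liver pool, then in the ND liver pool, with the fat pools indistinguishable within the scanner error. Slc2a2 was highest in the HFD liver pool, then in the ND liver pool, the HFD fat pool and the ND fat pool. Pdk4 and Irs2 were highest in the ND fat pool, then in the HFD fat pool and the liver pools. For Irs2 the fat pools were only 1.46 scanner errors apart, and the liver pools did not differ beyond the scanner error. Slc2a4 was highest in the HFD fat pool, then in the ND fat pool, the ND liver pool and the HFD liver pool. For this gene too the fat pools were only 1.02 scanner errors apart. Slc2a4 was 19.4-fold lower in liver than in fat on the normal diet and 47.0-fold lower on the high-fat diet. Pck1 had nearly the same level in both tissues, with a gap of -0.32 on the high-fat diet and -0.28 on the normal diet, and that gap changed sign to 0.57 and 0.67 when channels were scaled to a common median.

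The enzymes around the 3 glucose-producing genes stayed within 2-fold in liver. Of 19 other listed genes of gluconeogenesis and glucose output, 16 were measured in liver with 0 past 2-fold and a median of -0.01. The largest was Slc37a4, the transporter that feeds glucose 6-phosphate to the product of G6pc, at -0.66. Got1, an aspartate aminotransferase, was at 0.44 and Ldha, a lactate dehydrogenase subunit, at 0.25. In fat 4 of 18 were at least 2-fold higher and 0 lower, with a median of 0.24. Over all genes, 0.491% were called higher and 0.579% lower in liver, and 4.23% and 5.13% in fat. Fbp2, the muscle type fructose bisphosphatase, was at 2.51 and Gpt, an alanine aminotransferase, at 1.27, on the array whose intestinal markers had a median of 3.67.

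Genes of glucose use and glycogen also stayed within 2-fold in liver, and some passed it in fat, where calls were more common over all genes. In liver 0 of 38 measured passed 2-fold (median -0.06), with Ppp1r3c, a glycogen-targeting subunit of protein phosphatase 1, at -0.92, the liver glycogen synthase Gys2 at 0.82 and the muscle glycogen phosphorylase Pygm at -0.70. Over all genes, 0.491% were called higher and 0.579% lower in liver, against 4.23% and 5.13% in fat. In fat 4 of 38 on this list were at least 2-fold higher and 2 lower (median 0.13). Gckr, the liver inhibitor of glucokinase, was at -2.57, the fructose transporter Slc2a5 at 2.24 and Pfkfb4, a regulator of glycolysis, at 2.13.

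The list headed transcriptional control of glucose output held the only pathway genes past 2-fold in liver among the lists examined. It is a mixed list, not of transcription factors alone, and was drawn up with earlier results of these data known. Its counts therefore describe this choice of genes only. Of 26 measured there, 0 were at least 2-fold higher and 4 lower, with a median of -0.03. Zbtb16, a zinc finger repressor, was at -2.73, Ddit4, an inhibitor of mTORC1, at -1.61 and Nr0b2, a corepressor of bile acid and glucose genes, at -1.38. The shares over all genes were 0.491% higher and 0.579% lower in liver, and 4.23% and 5.13% in fat. In fat 3 of 24 measured genes of this list were at least 2-fold higher and 3 lower, with a median of -0.31. The highest were the liver and gut factors Creb3l3 (1.91) and Hnf4a (1.90). The 3 lower genes, named after their values were seen, were Klf15 (-1.45), Fkbp5 (-1.44) and Zbtb16 (-1.41), so Zbtb16 was past 2-fold lower on both arrays.

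**Figure D4:**
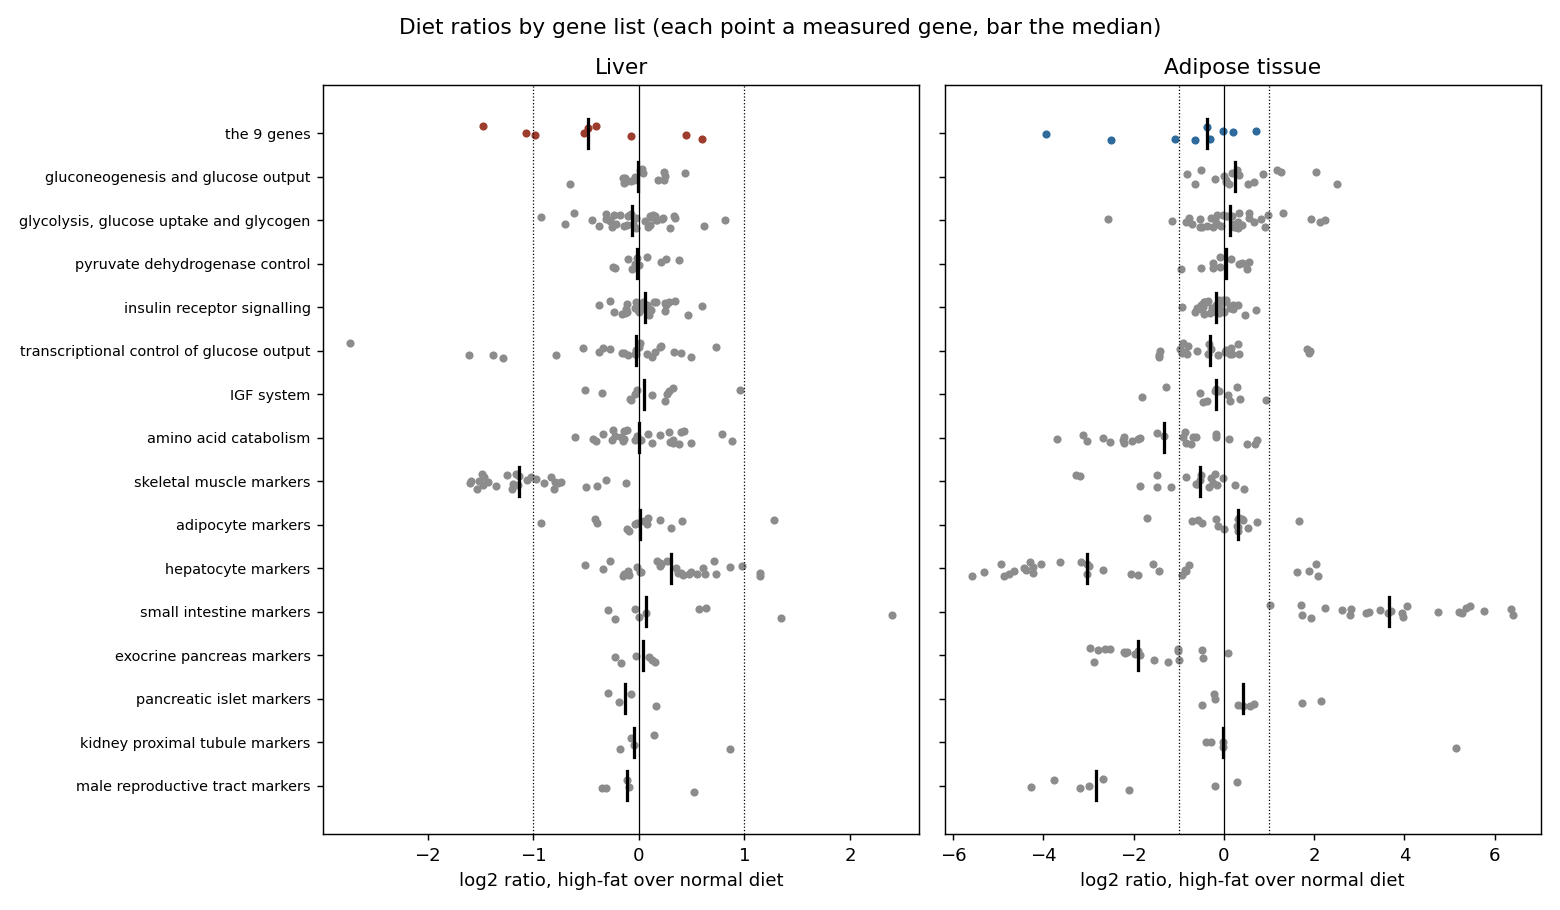
Log2 ratio of the HFD pool over the ND pool for the 9 genes (coloured points, top) and for every measured gene of 7 pathway lists and 8 marker lists (grey points), in liver (left) and adipose tissue (right, on a wider scale), with a bar at each list's median and dotted lines at 2-fold. In liver the muscle markers lie to the left at a median of -1.14, and in adipose tissue the intestinal markers lie to the right (3.67) and the hepatocyte markers mostly to the left (-3.03).

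The other marker lists were kidney, exocrine pancreas and the male reproductive tract. In liver 0 of their measured members, 5 of 15, 6 of 20 and 5 of 13, passed 2-fold. Over all genes that array had 0.491% called higher and 0.579% lower. In fat the kidney list, with 5 of 15 measured, had a median of -0.02, with 1 gene at least 2-fold higher and 0 lower. Its defining gene Slc34a1 was not among those measured. The higher gene was Cubn, which encodes the receptor cubilin, at 5.14 on the 1 probe that passed the filter. Its mean levels over all its probes lay closer together, at 10.59 in the HFD fat pool and 7.36 in the ND fat pool. Intestinal markers had a median of 3.67 on that array. Exocrine pancreas markers had a median of -1.91, with 16 of 19 at least 2-fold lower, and male tract markers a median of -2.83, with 6 of 8 lower. The fat shares over all genes were 4.23% higher and 5.13% lower.

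Genes with the most similar values were sought over 3 differences: the liver diet ratio, the fat diet ratio and the liver minus fat gap on the normal diet, among 12689 genes measured on both arrays. Tsc22d3 was the nearest to Pdk4, at a Euclidean distance of 0.44, with ratios of -1.29 in liver and -0.93 in fat, and Flnc followed (0.73). Plin4 was the nearest to Slc2a4 (0.24), with -0.93 in liver and 0.40 in fat, then Oxct1 (0.69). Nearest to Igfbp1 were Ces1c (0.97) and Hc (1.07), whose liver ratios of -0.12 and 0.07 were unlike its own. Tat had Ugt2b5 (0.23) and Ugt2b38 (0.31) beside it, and G6pc had Fga (0.27) and Cps1 (0.53). The nearest to Slc2a2 were Kctd14 (0.31) and Sgk2 (0.35), and to Fbp1 Pctp (0.11) and Apol9a (0.21). Ppm1f (0.07) and Dnah6 (0.08) were next to Pck1, and Tab3 (0.07) and Mark1 (0.08) to Irs2.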

How the data were processed

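The deposited intensities are median pixel values of each spot and its local background, without normalization, read with Feature Extraction 11.5.1.1 (protocol GE2_1105_Oct12), per the file headers; version 8.5.1.1 stands in the submitters' processing notes. The deposited log10 ratio (red over green) and processed signal intensities were made by the authors' scanner software. The arrays are annotated on mm9, per the file headers, so positions are given only for promoter windows.

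Outlying local backgrounds, as marked by the software, were first set to the median of their channel (liver, 1602 red and 665 green; adipose, 1480 and 406). Correction by normexp with an offset of 50, which pulls ratios of dim probes towards 0, and loess with control spots left out of the curve followed, in limma 3.58.1 (R 4.3.3). Spots marked as outliers (184 in liver, 213 in adipose tissue) were dropped, and no spot was saturated. Log2 values were averaged over the spots of a probe, then over the probes of a gene that were well above background in both channels. RefSeq accessions matched 27503 of 39418 liver probes to a gene. Channel levels follow Aquantile scaling, which assumes a like distribution of brightness in both tissues. Scripts were tested on simulated data. Precision is limited by the number of arrays, and no test was made.

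The 9 genes, the 15 gene lists and the settings were chosen with earlier results of these data known. Besides the 9 genes, the text names the 3 largest ratios of each pathway list per tissue, up to 3 of a marker list, and the 2 genes nearest to each of the 9; Ins2 was added after its value was seen. Some genes that this rule would name are not reported here. The 9 alternatives for ratios and 2 for levels are listed with their effects in the closing section and changed the background, the normalization, the filter on dim probes or the choice of probe.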

Additional observations from a re-analysis of the deposited data

Results flagged for a closer look

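The ratio of 2 genes had opposite signs in the tissues, each on 1 array, and the difference was not tested. For Slc2a4 the liver ratio minus the fat ratio was -1.27, from -1.07 in liver and 0.21 in fat, and the liver value is the one that changes with the local backgrounds. For Fbp1 the difference was 0.62, from 0.60 in liver and -0.02 in fat, where the fat ratio is smaller than its error and the liver ratio is close to that of other genes of its brightness.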

How the results depend on the processing

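The alternatives for ratios were the scanner software's ratio, no background subtraction, an offset of 10, deposited local backgrounds, median centring, a running median by brightness, 2 other filters on dim probes and the brightest probe per gene. Of the 9 genes, Pdk4 in liver and Igfbp1 and Tat in adipose tissue stayed past 2-fold lower under all 9 alternatives (-1.51 to -1.03, -4.74 to -3.25 and -2.95 to -1.77). Median centring put the median of all measured genes at 0.32 in liver and 0.69 in adipose tissue. Pdk4 in adipose tissue was 0.0142 in that setting, which is -0.68 relative to that median, so it kept its side. Of the 9 genes 1 was higher and 1 lower in liver, and 3 were higher and 2 lower in adipose tissue, before that shift was taken off. Relative to the shifted median 1 was higher and 2 lower in liver, and 0 were higher and 2 lower in adipose tissue. With local backgrounds as deposited 1 gene of the 9 was lower in liver, and with the software's log ratio 1 was higher in adipose tissue. Over all genes, the liver counts higher and lower were 138 and 157 for the software's ratio, 20 and 35 for deposited local backgrounds and 445 and 28 with median centring (94.1% of calls higher, against 45.9%). The count higher in liver was 117 when 1 channel above background sufficed (59.7% of calls) and 103 without a filter on dim probes (56.9%). In adipose tissue 4206 genes were higher with median centring (87.2% of calls, against 45.1%), and 1230 were lower with the software's ratio. With channels scaled to a common median the liver minus fat gaps on the normal diet were 6.59 for G6pc, 0.67 for Pck1, 5.01 for Fbp1, -1.15 for Pdk4, -0.34 for Irs2, 6.04 for Tat, 5.28 for Slc2a2 and -3.86 for Slc2a4. The cause of these shifts was not tested. Dim channels limit Igfbp1, Tat and Slc2a2 in adipose tissue and Slc2a4 in liver most. No paired analysis was possible because each tissue has 1 array.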
